A study of Mus musculus with 4 samples.

Results

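The genes described here are mouse genes named for the germline or the testis, and the question asked of them is whether they were listed in single-cell RNA sequencing libraries of the fetal pancreas. They were chosen by symbol: the numbered Tex (testis expressed) and Spata (spermatogenesis associated) genes, Magea and Mageb, Piwil1, Piwil2 and Piwil4, the numbered Tdrd genes, Nanos1 to Nanos3, Sycp1 to Sycp3, and the 6 single genes Ddx4, Dazl, Dnmt3l, Stra8, Mael and Rec8. The annotation held 97 such genes, and 71 of them were in at least 1 of the 3 complete gene lists, which together held 29652 genes. All but 1 of the 97, Spata5l1, were annotated as protein-coding. The set was proposed with the listing of some of its genes known, so every count below is a description and none is a test.

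Cells of pancreas from C57BL/6 embryos at E13.5 and E15.5 were dissociated, labelled for the epithelial surface protein EpCAM and sorted by flow cytometry. All groups carried Setd2 f/f, a conditional allele of a histone H3 methyltransferase. The WT embryos (Setd2 f/f; WT) are named without a recombinase, and the KO embryos (PdxcreSetd2 f/f; KO) carried a Cre driven by Pdx, so recombination is limited to cells of that lineage and their descendants. There was 1 library for each of E13.5 WT, E13.5 KO, E15.5 WT and E15.5 KO, and the number of embryos behind each is not given in the sources used here. Each deposited file is a gene list without values. A gene was therefore either listed or not listed, and its level, the number of cells and the sequencing depth are unknown. The complete lists held 25463 (E13.5 WT), 26341 (E13.5 KO) and 25474 genes (E15.5 KO). The E15.5 WT list broke off after 167 complete lines, and it was used only up to its last complete identifier. No group had a replicate library, and a gene that was not listed may have been missed. Setd2 itself was in all 3 complete lists, and since a listing shows neither level nor exon it is no check of the deletion. The 23 pancreatic epithelial markers examined, Epcam and Pdx1 among them, were in all 3 as well.

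In the germline, small RNAs bound by PIWI proteins (piRNAs) direct the silencing of transposons, Tudor domain (Tdrd) proteins hold that machinery together, and DNA methylation fixes the silent state. Meiosis then needs its own cohesin and the synaptonemal complex, the protein zipper between paired chromosomes. Many genes of these programmes have CpG-rich promoters that are methylated and silent in body tissues. A testis name is not proof of restriction to the testis, since some Tex and Spata genes were named for where they were first found and serve general cell functions.

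Sequences just upstream of 6 of the genes are given first, because the CpG content of the promoter differed between the genes that every complete list held and those that none held. They are 250 bases before the most upstream RefSeq start of each gene (GRCm38.p6), 5′ to 3′ on the strand of the gene, none overlaps an annotated exon, and capitals mark each CpG. Sycp1 and Tex30 were in all 3 complete lists, Spata32 in both E13.5 lists, Mageb16 in E13.5 WT, Magea8 in E13.5 KO and Tex28 in none.
Sycp1 (chr3:102936101-102936350, minus strand): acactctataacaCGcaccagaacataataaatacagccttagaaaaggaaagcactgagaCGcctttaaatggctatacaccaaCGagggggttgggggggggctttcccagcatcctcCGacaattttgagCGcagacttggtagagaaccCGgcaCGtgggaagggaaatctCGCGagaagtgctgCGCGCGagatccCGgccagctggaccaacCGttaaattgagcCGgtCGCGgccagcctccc
Tex30 (chr1:44102442-44102691, minus strand): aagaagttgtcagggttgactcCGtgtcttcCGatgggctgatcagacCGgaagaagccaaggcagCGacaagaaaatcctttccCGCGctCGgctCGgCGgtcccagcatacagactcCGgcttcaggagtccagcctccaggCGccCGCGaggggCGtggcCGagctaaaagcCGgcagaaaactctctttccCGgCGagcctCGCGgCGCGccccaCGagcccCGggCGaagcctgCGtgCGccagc
Spata32 (chr11:103218433-103218682, minus strand): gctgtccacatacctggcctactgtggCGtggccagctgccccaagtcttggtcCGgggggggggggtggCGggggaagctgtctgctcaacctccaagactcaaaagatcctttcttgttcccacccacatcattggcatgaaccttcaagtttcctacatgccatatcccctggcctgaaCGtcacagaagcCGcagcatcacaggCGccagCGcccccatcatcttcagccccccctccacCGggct
Mageb16 (chrX:79671436-79671685, minus strand): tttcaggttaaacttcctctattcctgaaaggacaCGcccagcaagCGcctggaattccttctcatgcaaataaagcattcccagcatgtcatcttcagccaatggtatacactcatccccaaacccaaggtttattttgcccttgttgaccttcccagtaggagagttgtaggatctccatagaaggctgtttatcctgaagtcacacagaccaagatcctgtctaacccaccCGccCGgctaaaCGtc
Magea8 (chrX:154995851-154996100, minus strand): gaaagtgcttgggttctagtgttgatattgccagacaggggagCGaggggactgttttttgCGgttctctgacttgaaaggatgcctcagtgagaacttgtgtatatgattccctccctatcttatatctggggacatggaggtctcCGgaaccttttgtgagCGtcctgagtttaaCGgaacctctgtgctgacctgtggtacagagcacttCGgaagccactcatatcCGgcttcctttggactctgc
Tex28 (chrX:74167839-74168088, minus strand): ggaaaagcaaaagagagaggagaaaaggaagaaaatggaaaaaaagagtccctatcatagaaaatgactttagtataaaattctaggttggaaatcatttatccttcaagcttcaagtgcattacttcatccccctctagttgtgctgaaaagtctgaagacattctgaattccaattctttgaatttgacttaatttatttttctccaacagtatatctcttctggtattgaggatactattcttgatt
The window of Sycp1 held 17 CpGs and that of Tex30 held 27. The windows of Spata32, Mageb16 and Magea8 held 8, 5 and 7, and that of Tex28 held 0. The 6 were chosen after values were seen and do not show the spread. The same window held 2 CpGs for Tex38, which was in all 3 complete lists, and 11 for Tex13b, which was in none.

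Of the 97 genes, 53 (54.6%) were in all 3 complete lists, 18 (18.6%) were in 1 or 2 of them and 26 (26.8%) were in none. Over the 21951 protein-coding genes of the annotation, 73.1% were in all 3 lists, 8.7% in 1 or 2 and 18.2% in none. Among the 71 listed genes, 74.6% were in all 3 lists, against 89.4% of the listed protein-coding genes. By library, E13.5 WT held 62 of the genes and the KO lists held 61 at each age. The totals were thus nearly equal, while the genes that made them up differed.

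**Figure D1:**
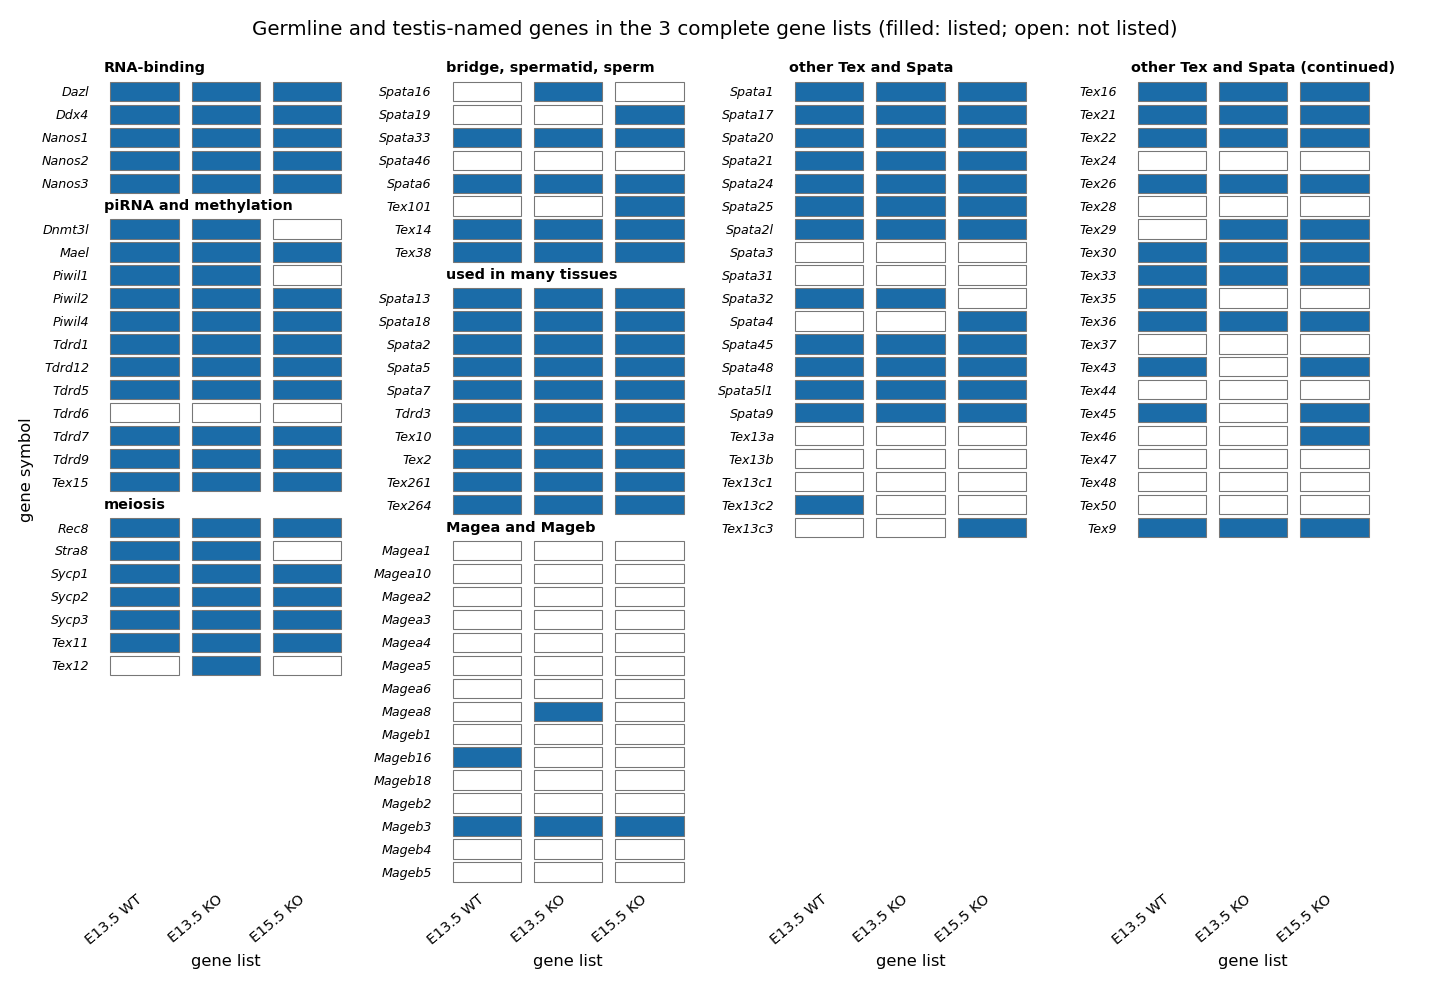
Listing of each of the 97 genes (rows, grouped by role) in the 3 complete gene lists (columns, named by age and genotype); a filled box is a listed gene and an open box a gene not listed. The RNA-binding genes are filled throughout, while 12 of the 15 Mage genes are open throughout.

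All 5 genes grouped here as germ cell RNA-binding proteins were in each complete list. Ddx4, the germ cell RNA helicase known as vasa, was in all 3 complete lists, and so was Dazl, a translational regulator of germ cells. Nanos1, Nanos2 and Nanos3, of a zinc finger family with members that repress mRNAs in germ cells, were listed in the same way. Nanos2 shares exon sequence on the opposite strand with an antisense gene, Gm45058, so reads of the pair cannot be told apart if the counting ignored strand. Gm45058 itself was in E13.5 WT alone.

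Of 12 genes of the piRNA pathway and of transposon methylation, 9 were in all 3 complete lists. These were the PIWI proteins Piwil2 and Piwil4, Mael, Tex15, which acts in piRNA-directed methylation, and the Tudor proteins Tdrd1, Tdrd5, Tdrd7, Tdrd9 and Tdrd12. Piwil1, the PIWI protein of later spermatogenesis (ENSMUSG00000029423, chromosome 5, 128702524 to 128755474, mm10/GRCm38), was in both E13.5 lists and absent from E15.5 KO. Dnmt3l, the catalytically inactive partner of the de novo DNA methyltransferases (ENSMUSG00000000730, chromosome 10, 78041947 to 78063622), followed the same pattern. Dnmt3l was the 1 gene of the set that fell in the stretch covered by the E15.5 WT list, and it was not listed there either. It was thus listed in both genotypes at E13.5 and in neither at E15.5. In that stretch, 8 of the 172 genes in either E15.5 list (4.65%) differed between the genotypes. Exons of Dnmt3l overlap those of Aire on the opposite strand, and Aire was in all 3 complete lists. Tdrd6, a scaffold of the chromatoid body of spermatids, was in none.

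Of 7 meiotic genes, 5 were in all 3 complete lists: the meiotic cohesin subunit Rec8, the synaptonemal complex genes Sycp1, Sycp2 and Sycp3, and Tex11, an X-linked gene of chromosome synapsis. Stra8, the retinoic acid-induced gatekeeper of meiotic entry (chromosome 6, 34920163 to 34939344), was in both E13.5 lists and absent from E15.5 KO. Tex12, a small protein of the central element of the synaptonemal complex (chromosome 9, 50556819 to 50561325), was in E13.5 KO alone. Sycp1 shared 15.6% of its transcript sequence with other transcripts, measured as stretches of 31 bases, most of it with Sycp1-ps1.

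Among 8 genes of the germ cell bridge, spermatids and sperm, 4 were in all 3 complete lists: Tex14, needed for the bridges between germ cells, Spata6 of the sperm neck, Spata33 and Tex38. Spata16, an acrosome gene (chromosome 3, 26637620 to 26983212), was in E13.5 KO alone. Spata19, a mitochondrial protein of sperm (chromosome 9, 27396800 to 27401785), and Tex101, a surface protein of germ cells (chromosome 7, 24668007 to 24676675), were in E15.5 KO alone. Spata46 was in none. These later-acting genes were therefore more scattered over the lists than the RNA-binding group, although the groups are small and the difference was not tested.

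The 10 genes with known functions in many tissues were all in the 3 complete lists. They were Tex2, a lipid transfer protein, Tex10, Tex261 and Tex264, the last a receptor for turnover of the endoplasmic reticulum, Tdrd3, Spata2, a partner of the deubiquitinase CYLD, Spata5, Spata7 of the photoreceptor cilium, Spata13 and Spata18. Without them, 43 of 87 genes were in all 3 lists and 26 in none.

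The Mage genes were the family with the fewest listings. Magea and Mageb encode related proteins of germ cells and tumours, and 14 of the 15 lie on the X chromosome. Of the 8 Magea genes, Magea8 (X chromosome, 154985775 to 154995850) was in E13.5 KO and the other 7 were in none. Of the 7 Mageb genes, Mageb16 (X chromosome, 79623231 to 79671435) was in E13.5 WT alone, Mageb3 was in all 3 lists and the other 5 were in none. Mageb3 is the autosomal gene of the family (chromosome 2, 121953752 to 121956092), and its exons overlap those of Ctdspl2 on the opposite strand, a gene in all 3 lists. Copies of these genes are alike: 57.1% of the transcript sequence of Magea8, 55.6% of that of Mageb16 and 37.9% of that of Mageb3 recurred in transcripts of other genes, in stretches of 31 bases. A read from such a stretch has no single origin, so these listings are uncertain. The same holds for 9 of the 12 unlisted Mage genes, with at least 30% shared sequence, whereas Magea10 and Mageb18 shared 0% and Magea4 shared 7.41%.

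**Figure D2:**
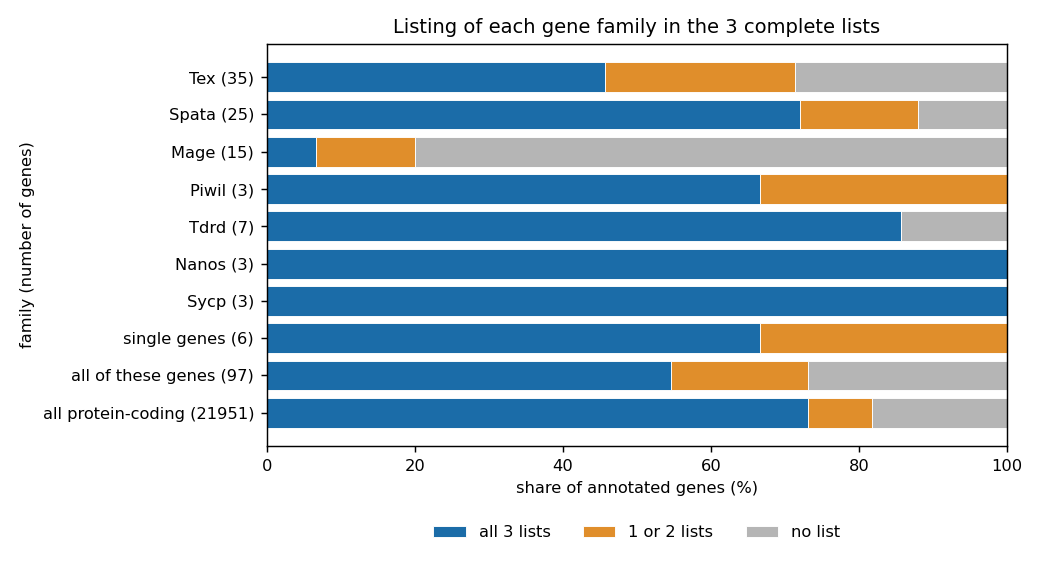
Share of the annotated genes of each family (rows, with the number of genes) that were in all 3 complete lists, in 1 or 2 of them or in none. All 3 Nanos and all 3 Sycp genes were in every complete list, against 1 of 15 Mage genes, and 73.1% of all protein-coding genes were.

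The remaining 40 Tex and Spata genes, whose roles were not grouped here, split into 19 in all 3 complete lists, 9 in 1 or 2 and 12 in none. Spata32 (chromosome 11, 103208127 to 103218432) was in both E13.5 lists and absent from E15.5 KO. Tex29 (chromosome 8, 11840474 to 11855761) was the 1 gene of the whole set that both KO lists held and E13.5 WT did not. Tex43 (chromosome 18, 56588350 to 56594782) and Tex45 (chromosome 8, 3470862 to 3487181) were in E13.5 WT and E15.5 KO. Tex35 (chromosome 1, 157099139 to 157108680) and Tex13c2 (X chromosome, 42489691 to 42491524) were in E13.5 WT alone. Spata4 (chromosome 8, 54600781 to 54610098), Tex46 (chromosome 4, 136610437 to 136613226) and Tex13c3 (X chromosome, 19479420 to 19481319) were in E15.5 KO alone. Exons of Spata4 overlap those of the antisense gene 5330439A09Rik, which was in both KO lists. None of the 5 Tex13 genes, all of them X-linked, was in more than 1 list.

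Whether these genes were listed differently where Setd2 was deleted was read from the genotypes at E13.5. Of 66 genes in either list, 57 (86.4%) were in both, 4 were in KO only and 5 in WT only. In KO only were Tex12, Spata16, Magea8 and Tex29, and in WT only were Mageb16, Tex13c2, Tex35, Tex43 and Tex45. Over the protein-coding genes in either list, 3.17% were in KO only and 2.91% in WT only, or 6.08% together. Over listed genes of every type the values were 9.72% and 6.61%, or 16.3% together. The shares for the germline and testis-named genes were 6.06% and 7.58%, each made of 5 genes or fewer, and neither genotype held more than 1 gene beyond the other.

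How the listing differed with age was read from the KO embryos, the genotype with a complete list at both ages. Of 68 genes in either list, 54 (79.4%) were in both, 7 appeared at the younger age alone and 7 at the older, or 10.3% each. Over the protein-coding genes, 5.03% appeared at the younger age alone and 2.55% at the older, or 7.57% together. Over listed genes of every type the values were 10.4% and 7.37%, or 17.8% together. At E13.5 only were Piwil1, Dnmt3l, Stra8, Tex12, Spata16, Spata32 and Magea8. At E15.5 only were Spata4, Spata19, Tex101, Tex13c3, Tex43, Tex45 and Tex46. The younger side thus held 4 genes of the piRNA, methylation and meiotic groups and the older side held none of them. However, on the older side only Spata19 and Tex101 had a role group at all, while on the younger side all but Spata32 had. The role groups were drawn after values were seen, and protein-coding genes as a whole also leaned to the younger side. In the 6 other germ cell lists described below, 16.0% of genes were at the younger age alone and 6.38% at the older. Of the 24 RNA-binding, piRNA and meiotic genes, 23 were in the KO list of the younger age and 19 in that of the older, and E13.5 WT held 22. The step from 23 to 19 is made of the same 4 genes. Markers of other cells moved in the same comparison: of 22 markers of mesenchyme, endothelium, erythroid, immune and neural crest cells, 22 were in each E13.5 list and 15 in E15.5 KO. Of 14 markers of the somatic cells of the gonad, 9 were in E13.5 WT, 10 in the younger KO list and 11 in the older. Those in all 3 lists were Amh, Dhh, Gata4, Wt1, Sox9, Inha, Star, Hsd3b1 and Cyp11a1, several of which other tissues also express. Cyp17a1 was in both KO lists and Nr5a1 in the older KO list alone, while Foxl2, Fshr and Insl3 were in none. The E15.5 KO list also held fewer protein-coding genes, 16717 against 17154. The part of other cells or of list size in the result was not tested, and age, sort and library cannot be told apart.

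**Figure D3:**
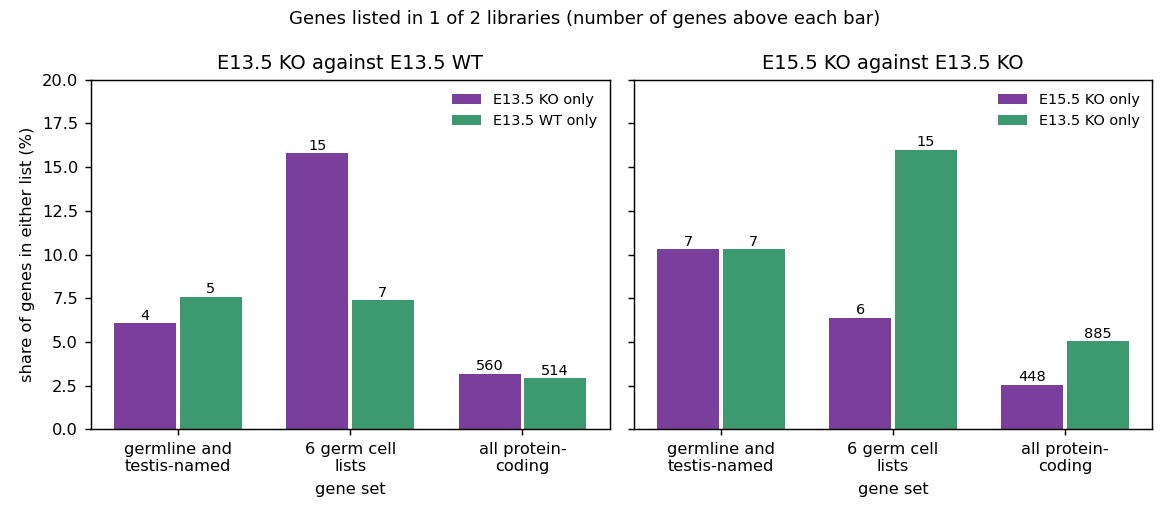
Share of the genes in either of 2 lists that were in 1 of them only (bars, with the number of genes above), for E13.5 KO against E13.5 WT and for E15.5 KO against E13.5 KO. The germline and testis-named genes show 4 against 5 and 7 against 7, and the 6 other germ cell lists 15 against 7 and 6 against 15.

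The rest of the germ cell programme was read from 6 lists of genes outside the set, 107 genes with a match in the annotation. Of these 67 were in all 3 complete lists, 31 in 1 or 2 and 9 in none. At E13.5, 15 of the 95 genes in either list (15.8%) were in KO only and 7 (7.37%) in WT only. The protein-coding background in those directions was 3.17% and 2.91%, and over listed genes of every type it was 9.72% and 6.61%. The 6 lists were chosen with earlier results of these data known. Of the 15 genes in KO only, 6 were also in E15.5 KO, and 4 of the 107 genes were in E13.5 WT alone. Over all annotated protein-coding genes, 1.04% were in both KO lists and not in E13.5 WT, and 1.58% were in E13.5 WT alone. The E15.5 WT list did not reach the 6 genes, so their listing in that group is unknown. For meiosis, with 27 genes in either list, the split was 4 in KO only (14.8%) and 0 in WT only. The 4 were Hormad1, which marks unpaired chromosome axes, Syce3 of the synaptonemal complex, the meiotic cohesin subunit Rad21l, and Majin, which tethers telomeres to the nuclear envelope. For the piRNA pathway, with 14 genes in either list, it was 3 (21.4%) and 1 (7.14%). Mov10l1, the helicase that starts piRNA processing, Asz1 and Gtsf1 were in KO only and Spocd1 in WT only. Syce3, Rad21l, Majin, Mov10l1 and Gtsf1 were in both KO lists, while Hormad1 and Asz1 were in E13.5 KO alone. Sohlh1, a transcription factor of spermatogonia, was also in both KO lists and not in E13.5 WT.

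The lists of primordial germ cell, sperm and oocyte genes held genes on both sides. Among primordial germ cell factors Nanog was in E13.5 KO only, and Prdm14 and Dppa4 were in E13.5 WT and not in E13.5 KO. Among spermatid and sperm genes 3 were in KO only (Tnp2, Acr and Akap4) and 3 in WT only (Prm1, Tnp1 and Tssk1), while the protamine gene Prm2 was in none. Among oocyte genes Zp1, Figla and Oosp1 were in KO only and Nlrp5 in WT only. A further list, for repression of germline genes and DNA methylation, held 21 genes and also counted Setd2 itself, Nsd1, Nsd2 and Nsd3. Of the 21, 20 were in all 3 lists, among them Dnmt1, Dnmt3a, Dnmt3b and E2f6, and Dnmt3c was in E13.5 WT alone. The germline and testis-named genes of the same pathways showed little of this lean. E13.5 WT and E13.5 KO each held 11 of their piRNA and methylation genes, and 6 and 7 of their meiotic genes. With 1 library per genotype, the larger number of meiotic and piRNA genes of the other lists in E13.5 KO cannot be told apart from a difference between libraries. The E13.5 KO list was also the longest of the 3.

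**Figure D4:**
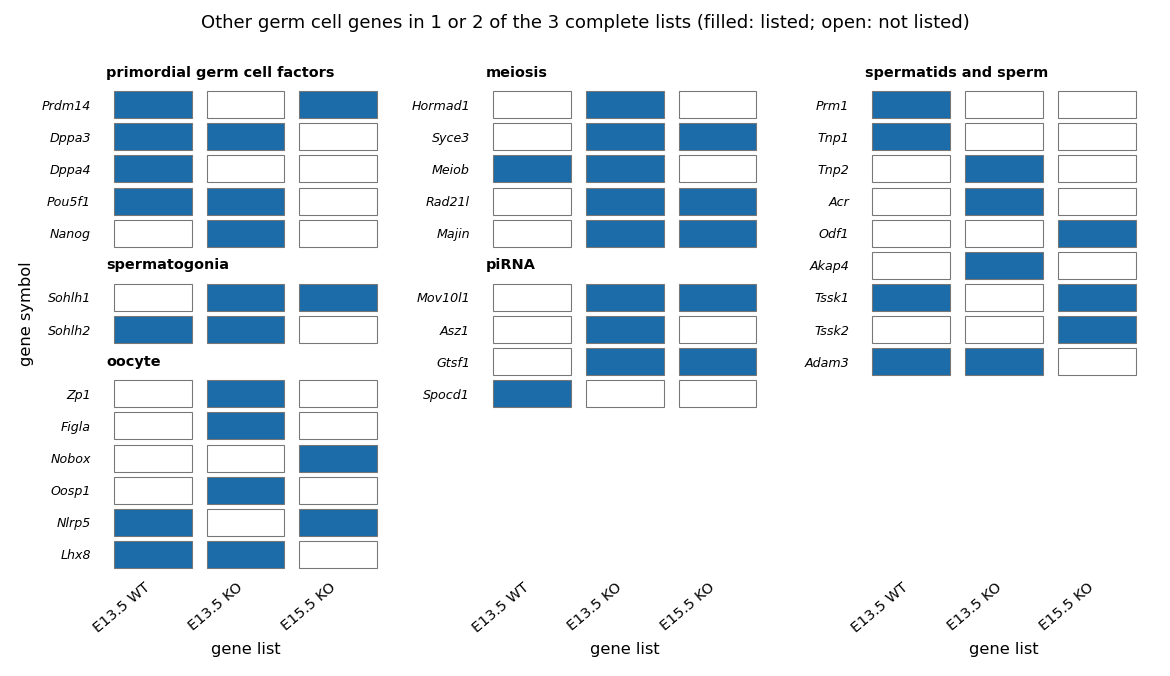
Listing of the 31 genes of the 6 germ cell lists that were in 1 or 2 of the 3 complete lists (rows, by list), with filled boxes for listed genes. In the meiosis and piRNA blocks, 7 of 9 rows are open in E13.5 WT and filled in E13.5 KO.

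Listing went with the length of a gene's exons. The median exon length was 3591 bases for the 53 genes in all 3 complete lists, 1539 for the 18 in 1 or 2 and 1649.5 for the 26 in none. Over protein-coding genes the medians were 4216, 2279 and 1802 bases. Of the 48 genes with exons under 2000 bases, 31.2% were in all 3 lists, 31.2% in 1 or 2 and 37.5% in none, and the protein-coding shares at that length were 45.6%, 14.6% and 39.8%. Of the 49 with longer exons, 77.6% were in all 3 lists, against 82.6% of protein-coding genes. Of the 18 genes that differed between lists, 15 were thus short, and the longer ones were Piwil1, Spata16 and Dnmt3l. The shortest gene in all 3 lists was Spata45, with 506 bases.

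Promoter CpG content differed with listing as well. It was taken as the observed over expected number of CpGs in 300 bases, 250 before and 50 after the most upstream RefSeq start, which RefSeq tables for GRCm38.p6 gave for 84 of the 97 genes. The median was 0.69 for 47 genes in all 3 lists (quartiles 0.28 and 0.89), 0.36 for 16 in 1 or 2 lists (0.20 and 0.51) and 0.14 for 21 in none (0.08 and 0.24). Of 32 genes at or above 0.6, 29 were in all 3 lists, and the other 3 were Tex12, Tex101 and Tex13b. Of 52 genes below it, 18 were in all 3 lists, 14 in 1 or 2 and 20 in none. Dnmt3l (0.27), Stra8 (0.43), Piwil1 (0.54) and Spata32 (0.38), the genes in both E13.5 lists but not in E15.5 KO, all lay below 0.6. For 10 of the 84 genes, among them Piwil1, Tex101, Tex16 and Nanos3, the RefSeq start lies 1000 bases or more from the gene start in GENCODE, so the window describes another start. Without these 10 the medians were 0.71, 0.30 and 0.125. CpG-poor promoters did not preclude a listing, since Nanos2 stood at 0 and was in all 3 lists. The same summary over all protein-coding genes is void, because only 74.8% of them had a promoter sequence, so listing by CpG content was not compared with that of other genes. In the promoter table itself, without regard to listing or gene type, 36.5% of genes were at or above 0.6, against 38.1% of these 84.

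**Figure D5:**
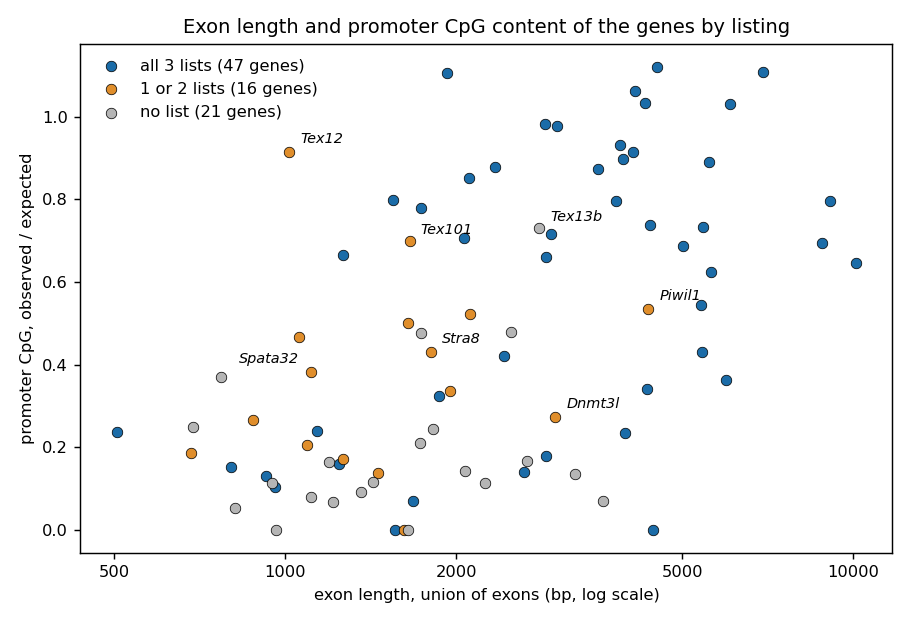
Exon length (x axis, log scale, bases) and promoter CpG observed over expected (y axis) of the 84 genes with a promoter sequence, coloured by listing in the 3 complete lists. Of the 32 genes at or above 0.6, 29 were in all 3 lists, and genes in all 3 lists also lie below it (18 of 47), where 20 of the 21 genes in no list lie.

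The 300-base promoter windows, which reach 50 bases past the start, were also searched on both strands. The motifs were CACGTG, the E-box read by MGA and MAX, and TCCCGC, an element of E2F sites. Complexes with these proteins repress germline genes in body tissues. CACGTG was in 11 of the 84 windows (13.1%) and in 7.24% of the windows of all 27025 genes in the table. That table was not limited to protein-coding genes, so its shares are not those of a matched set. The 11 included Ddx4, Mael, Sycp1, Sycp3, Tdrd1, Tdrd9, Piwil1, Spata16 and Tex12. By listing, the share with CACGTG was 17.0% of 47 genes in all 3 lists and 18.8% of 16 in 1 or 2. It was 0 of 21 genes in no list. TCCCGC was in 22 windows (26.2%), against 20.1% of all. Of those 22 genes 21 were in all 3 lists, as were 47 of the 84 genes searched. The 21 included genes with functions in many tissues, such as Tdrd3, Tex2 and Tex261. Ddx4, Mael, Sycp1, Sycp3 and Tex12 held both in these 300 bases. In the 250 bases printed above, Sycp1 held CACGTG and not TCCCGC. The motifs can share at most an end letter, but both contain a CpG, so their number can go with CpG content, and a match is not a binding site.

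Sequence shared with other genes was mostly a trait of the Mage family. At least 30% of the transcript sequence recurred elsewhere for 10 of the 26 genes in no list, 2 of the 18 in 1 or 2 lists and 2 of the 53 in all 3. Of the 10, 9 were Mage genes and the other was Tex24. The share over all protein-coding genes was not computed. Exon overlap with another gene was found for 16 of the 53 genes in all 3 lists (30.2%), 13 of them with a gene on the opposite strand, for 2 of 18 (11.1%) and for 0 of 26. Over protein-coding genes the order was the same: 34.9% of those in all 3 lists, 22.1% of those in 1 or 2 and 540 of the 4002 in none. Sycp3 overlaps Chpt1, Spata1 overlaps Ctbs, Tex9 overlaps Mns1 and Tex10 overlaps Invs, and each of these partners was in all 3 lists. Whether reads of the partner gene led to a listing was not tested. The X chromosome held 22 of the 97 genes, of which 2 (9.09%), Tex11 and Tex16, were in all 3 lists and 16 (72.7%) in none. The 16 include all 12 unlisted Mage genes, so this share largely repeats the listing of that family. Among the 948 X-linked protein-coding genes 59% were in all 3 lists and 29.1% in none. Of the 75 genes elsewhere, 68% were in all 3 lists and 13.3% in none, against 73.7% and 17.7% of protein-coding genes.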

How the data were processed

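The data are 4 single-cell RNA sequencing libraries, 1 per group, grouped by sample title. Each list deposited by the authors has 2 columns, an Ensembl identifier and a symbol, with no header line and no measured unit. The submitters' processing notes name Seurat and mm10. The aligner, annotation release, filters and listing rule were not given in the sources used here. Symbols were matched as deposited, and GENCODE M21 (GRCm38, the assembly of mm10) gave gene types, coordinates, exon lengths and the genes in no list. Exon length is the union of all exons. Shared sequence is the share of 31-base stretches of a gene's transcripts found, sense strand, in transcripts of other genes. Promoters came from RefSeq by symbol. Every gene whose listing differed is named, the others by family. The members and lists were chosen with earlier results of these data known, and the role groups, the sequences shown and the limits of 2000 bases, 1000 bases, 0.6 and 30% after values were seen. No test was run, since 1 library per group allows none. Counting steps were tested on simulated data. Python 3.11.15 and pandas 2.3.3 were used.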

Additional observations from a re-analysis of the deposited data

How the results depend on the processing

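The counts were recomputed under 8 alternatives: protein-coding genes only, copy numbers stripped from symbols, the annotation's symbols, wider family names, no X chromosome, no Magea and Mageb, identifiers up to the end of the broken list, and, chosen after the data were seen, no genes with exons overlapping another gene. Of 72 recomputed counts 63 were within 1.5 times the reported value. These 63 include the count of genes that differed between the E15.5 lists, which was 0 under each of the 8 alternatives. Only Dnmt3l of the set fell in that stretch, so this count had little room to move. Without the X chromosome 3 genes were in E13.5 WT only in place of 5. Up to the end of the broken list Dnmt3l alone is left to count: E13.5 WT held 1 gene, and the KO lists held 1 at the younger and 0 at the older age. The genotypes at E13.5 then had 0 genes of their own each, the KO ages had 1 (younger) and 0 (older), and 0 were in all 3 lists. Wider family names gave 6 in E13.5 KO only and 7 in E13.5 WT only, and stripping copy numbers gave 5 and 5. The promoter medians without distant starts, an alternative also chosen after the data were seen, stayed within the quartiles of the reported ones. No paired analysis was possible because there was 1 library in each group. Gene lists do not record depth, and its part in which genes are missing was not tested.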
